A study of Homo sapiens with 12 samples.

Results

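The genes described here are WNT5A, the WNT receptors ROR1, ROR2 and FZD7, the secreted antagonists DKK1, DKK3 and SFRP1, and the WNT response genes AXIN2, LEF1 and TCF7, in human melanoma cells given vemurafenib. The 10 genes were listed by symbol. Each was read from a probe set annotated with its symbol alone, taking the brightest on average over the 12 arrays where there were several. That gave values for 9 of the 10, out of 18404 genes, and TCF7 was not analysed here. The 4 groups were A375 with vemurafenib, A375 with DMSO, A2058 with vemurafenib and A2058 with DMSO, with 3 arrays each. A375 (source named A375p) and A2058 are established human melanoma lines, and the labels record BRAF V600E for every sample, so each comparison lies within cells labelled with that mutation. Vemurafenib is an inhibitor of mutant BRAF kinase, given at 1 µM for 72 h and renewed every 24 h, and DMSO is its solvent. The treatment text names A375p cells only, though it is given for A2058 samples too, whose dose and time are taken from it here. Nothing in the labels says whether the 3 arrays of a group came from separate cultures, so p-values measure the spread between these samples, which may be technical.

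WNT proteins are secreted ligands. In the canonical branch they bind a Frizzled receptor and an LRP co-receptor, beta-catenin is spared from degradation, and it joins factors of the LEF and TCF family at target genes. WNT5A acts mainly through a branch that does not need beta-catenin, with ROR1 and ROR2 among its receptors. In melanoma WNT5A is known for its link to motility and invasion. DKK1 blocks the LRP co-receptors, SFRP1 binds WNT ligands outside the cell, and DKK3 is a related secreted protein whose role in WNT signalling is less settled. AXIN2 is a feedback inhibitor often read as a reporter of beta-catenin output.

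Promoter sequence is shown for WNT5A and LEF1, which fell in both lines, and for DKK1, which moved in opposite directions. Each run is the 250 bases before a start annotated by RefSeq on build GRCh38.p14, written 5′ to 3′ on the gene's strand. Windows were found for 6 of the 10 genes (WNT5A, ROR1, ROR2, DKK1, LEF1 and TCF7). WNT5A has a window for each of 2 starts, at chr3:55487307-55487556 and chr3:55481399-55481648 on the minus strand, and its probe set gives 1 value for the gene. The DKK1 window is chr10:52314031-52314280 on the plus strand, and the LEF1 window is chr4:108166302-108166551 on the minus strand. Capitals mark matches to the motifs searched.
WNT5A, start 1: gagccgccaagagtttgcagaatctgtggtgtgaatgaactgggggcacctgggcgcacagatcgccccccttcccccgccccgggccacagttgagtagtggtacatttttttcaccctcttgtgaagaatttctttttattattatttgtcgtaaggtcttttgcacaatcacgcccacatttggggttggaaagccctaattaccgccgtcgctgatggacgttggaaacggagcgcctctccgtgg
WNT5A, start 2: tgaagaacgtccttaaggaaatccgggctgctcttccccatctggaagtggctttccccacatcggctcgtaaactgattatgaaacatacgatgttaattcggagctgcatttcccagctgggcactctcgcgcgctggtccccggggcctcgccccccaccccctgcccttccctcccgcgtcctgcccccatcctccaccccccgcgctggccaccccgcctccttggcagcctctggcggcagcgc
DKK1: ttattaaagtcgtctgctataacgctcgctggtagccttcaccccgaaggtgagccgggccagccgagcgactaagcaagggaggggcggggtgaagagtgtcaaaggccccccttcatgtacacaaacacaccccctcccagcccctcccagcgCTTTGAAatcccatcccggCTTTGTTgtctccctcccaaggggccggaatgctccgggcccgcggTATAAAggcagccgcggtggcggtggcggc
LEF1: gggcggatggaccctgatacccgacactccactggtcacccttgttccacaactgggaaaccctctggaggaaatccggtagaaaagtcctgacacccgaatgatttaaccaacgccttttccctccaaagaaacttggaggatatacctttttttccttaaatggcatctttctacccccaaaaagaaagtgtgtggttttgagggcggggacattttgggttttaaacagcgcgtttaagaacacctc
The letters searched for, on both strands, were a TCF/LEF motif in the form CTTTGAA or the form CTTTGAT, or else the form CTTTGTT or the form CTTTGTA, an AP-1 motif (TGACTCA, which reads TGAGTCA on the other strand), an ETS motif (CCGGAAG), an E-box (CACGTG) and a TATA motif (TATAAA). In the DKK1 window CTTTGAA began at position -95, CTTTGTT at -76 and TATAAA at -30, counted back from the annotated start, and none of these overlapped. The WNT5A and LEF1 windows held none of the letters searched. Among 35116 windows of the same length, 11.96% held the TCF/LEF motif, 4.203% the AP-1 motif, 8.517% the ETS motif, 6.345% the E-box and 10.72% the TATA motif. A match of letters is a description of the window and not evidence of binding.

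All values below are the deposited log2 expression values or log2 differences of group means from 1 limma fit over the 12 arrays. Called genes are those with an adjusted p below 0.05 over all 18404 genes. Replicates correlated at r = 0.9939 to 0.9989 across genes, and the lowest values, 0.9939 and 0.9941, were those of A375 vemurafenib replicate 1 with the rest of its group. The A375 change of each measured member is therefore also given without that array, as are some of the other differences that use it. The median SD of a gene was 0.0866 in A375 with vemurafenib and 0.0461 with DMSO. In A2058 it was 0.0507 with vemurafenib and 0.0591 with DMSO. The fit gives each gene a common spread over the groups. Of 8 measured pigment cell markers, 3 rose and 2 fell in A375, and 6 rose with no fall in A2058, where 37.0% and 27.1% of all genes were called. The mean of that list ran from 7.29 to 7.36 on A375 vemurafenib arrays and from 7.01 to 7.09 on A375 DMSO arrays. In A2058 it ran from 9.95 to 9.97 with vemurafenib and from 8.74 to 8.80 with DMSO. The pigment genes TYRP1 (3.26, adjusted p = 1.96e-09), PMEL (2.43, adjusted p = 1.02e-11) and MLANA (2.33, adjusted p = 4.05e-12) rose in A2058, against 0.38 (adjusted p = 0.0406), 0.08 (adjusted p = 0.335) and 0.10 (adjusted p = 0.12) in A375. MITF, the regulator of the melanocyte lineage, rose by 0.73 in each line (adjusted p = 5.66e-08 in A375 and 1.21e-07 in A2058), and S100B rose in A375 (1.01, adjusted p = 4.9e-10). The 2 that fell in A375 were SOX10 (-0.15, adjusted p = 0.0172) and ERBB3 (-0.14, adjusted p = 0.00733). In A2058 SOX10 rose (0.27, adjusted p = 0.000422) and ERBB3 was not called (-0.04, adjusted p = 0.522). As a check of identity, SOX10 averaged 9.38 with vemurafenib and 9.53 with DMSO in A375, and 9.48 with vemurafenib and 9.21 with DMSO in A2058. TYR, the key enzyme of melanin synthesis, averaged 4.57 in each A375 group, near the low end of the scale, against 11.38 and 10.93 in A2058 with vemurafenib and with DMSO.

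Markers of other cell types moved as well. Their counts stand beside shares of all genes of 17.7% called higher and 19.3% lower in A375. In A2058 those shares were 14.6% and 12.5%. Of 8 fibroblast markers, 3 rose and 1 fell in A375, and 1 fell in A2058 with no rise. The mean of that list ran from 5.31 to 5.43 on A375 vemurafenib arrays and from 5.04 to 5.11 on A375 DMSO arrays. LUM changed by far the most there (2.15), averaging 6.37 with vemurafenib and 4.22 with DMSO. PDGFRB (0.37) and DCN (0.19) rose by less and PDGFRA fell (-0.49) in A375, while COL1A1, COL1A2, COL3A1 and THY1 were not called. In A2058 the list mean ran from 5.26 to 5.30 with vemurafenib and from 5.28 to 5.31 with DMSO. Of 7 blood and immune markers, 1 rose and 1 fell in each line. CD68, a lysosomal protein, rose in A375 (0.92, adjusted p = 2.56e-08) and in A2058 (0.21, adjusted p = 0.0101), and lysozyme, LYZ, fell in both (-1.27, adjusted p = 5.38e-07, and -2.12, adjusted p = 8.38e-09), while the leukocyte marker PTPRC lay between 4.15 and 4.17 in the group means. That list's mean ran from 5.77 to 5.79 with vemurafenib and 5.77 to 5.81 with DMSO in A375, and from 5.24 to 5.31 with vemurafenib and 5.53 to 5.57 with DMSO in A2058. Of 7 epithelial markers, 3 fell in A375 and 1 in A2058. The keratin KRT18 averaged 8.48 with vemurafenib and 10.26 with DMSO in A375 (-1.79, adjusted p = 7.69e-08), and 7.46 with vemurafenib and 8.87 with DMSO in A2058 (-1.41, adjusted p = 1.4e-06), while EPCAM lay between 4.48 and 4.55. That list's mean ran from 5.48 to 5.71 with vemurafenib and 5.91 to 5.94 with DMSO in A375, and from 5.36 to 5.42 with vemurafenib and 5.60 to 5.67 with DMSO in A2058. Of 5 endothelial markers, 0 were called in A375 (0 also at an unadjusted p under 0.05) and 1 in A2058, KDR, which fell (-0.64, adjusted p = 3.21e-05). The part of these markers in the results below was not tested.

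The first comparison set vemurafenib against DMSO within each line. WNT5A fell in both, and more in A375. Its log2 values were 6.56, 6.90 and 6.88 in A375 with vemurafenib, against 7.90, 7.89 and 7.80 with DMSO. In A2058 they were 5.26, 5.20 and 5.29 with vemurafenib, against 5.83, 5.65 and 5.74 with DMSO. In neither line did the treated and DMSO arrays overlap, and every A375 array lay above every A2058 array. The log2 change was -1.09 ± 0.08 (SE, 2.12-fold lower, adjusted p = 2.28e-07) in A375 and -0.49 ± 0.08 (1.41-fold lower, adjusted p = 0.000458) in A2058. The A375 response minus the A2058 response was -0.59 (95% interval -0.84 to -0.35, adjusted p = 0.00142). The A2058 values, 5.20 to 5.83, lay below the median of 6.02 over all genes. How far they lie above background, and what part that has in the smaller A2058 change, was not tested. Without A375 vemurafenib replicate 1, the lowest treated value, the A375 change was -0.98 (adjusted p = 1.33e-08). These are bulk RNA values, in which fewer expressing cells and less RNA per cell cannot be told apart.

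**Figure D1:**
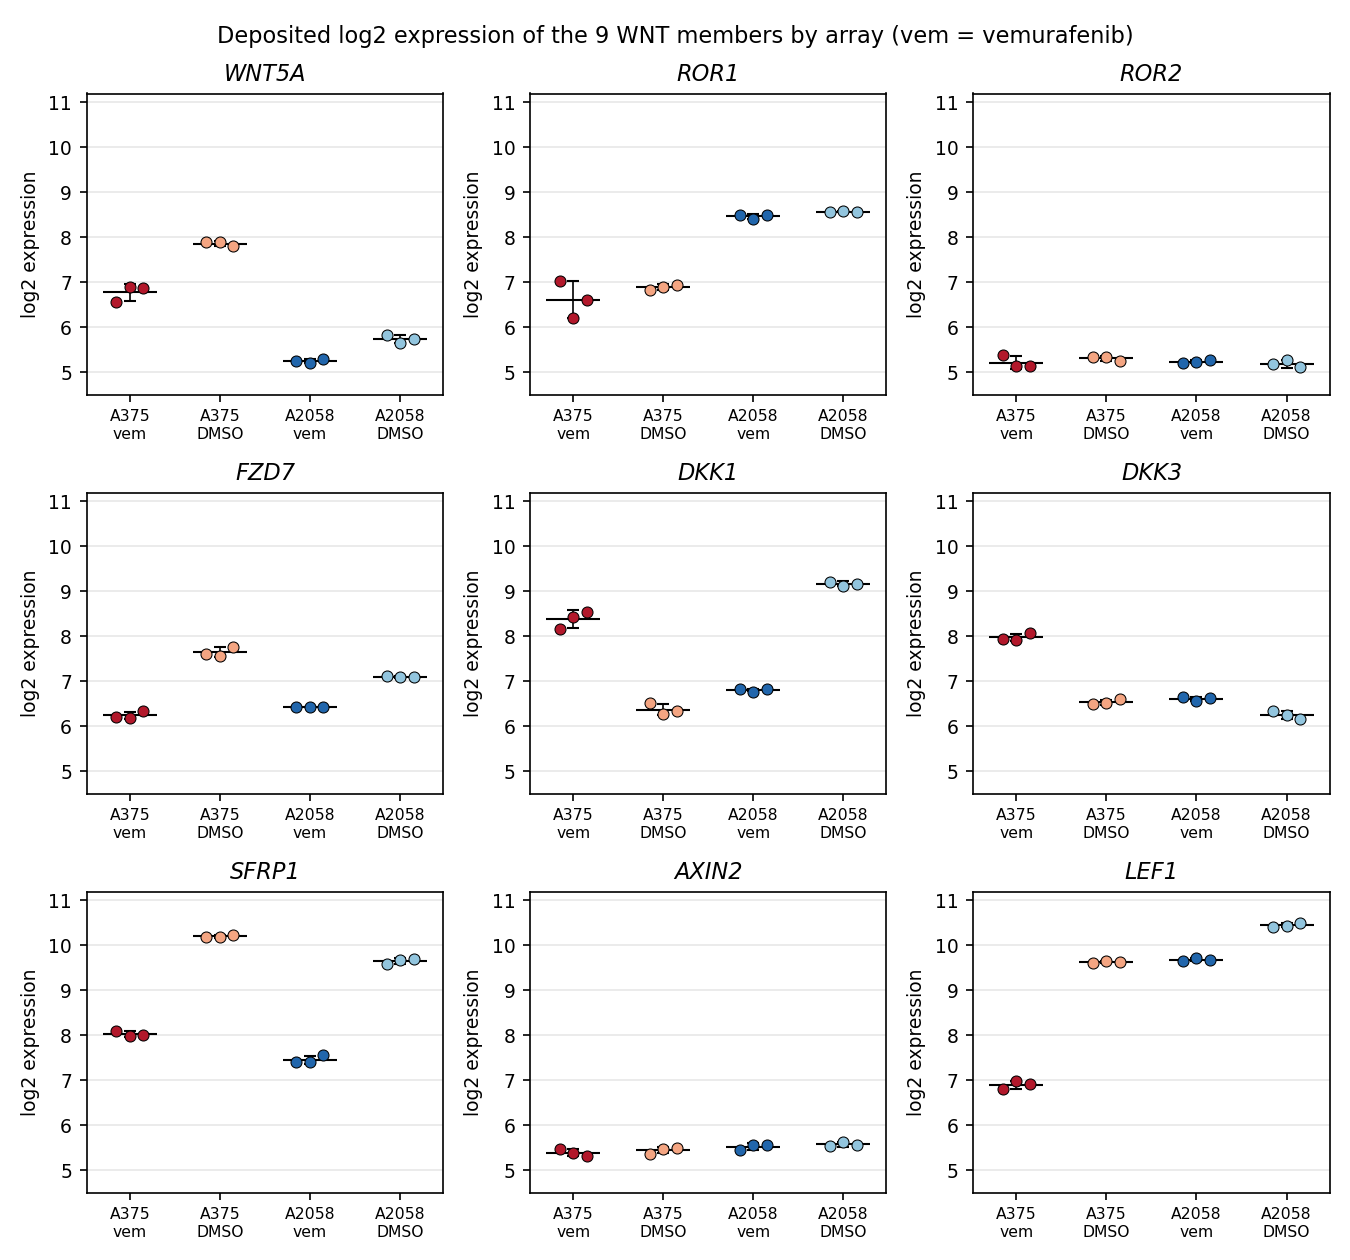
Log2 expression of the 9 measured genes, 1 panel per gene, with 1 point per array, a bar at the mean and whiskers of 1 SD for each group of 3 arrays. WNT5A, FZD7, SFRP1 and LEF1 are lower with vemurafenib in each line, DKK1 is higher in A375 (8.16 to 8.55 against 6.27 to 6.52) and lower in A2058 (6.77 to 6.83 against 9.11 to 9.22), and ROR2 and AXIN2 lie between 5.11 and 5.63 throughout.

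Among the receptors, FZD7 fell in both lines while neither ROR gene was called. FZD7, a Frizzled receptor of both WNT branches, had values of 6.21, 6.19 and 6.33 in A375 with vemurafenib and 7.60, 7.56 and 7.77 with DMSO. In A2058 the values were 6.42, 6.43 and 6.43 with vemurafenib and 7.13, 7.09 and 7.09 with DMSO. Treated and DMSO arrays were separate in each line, and the DMSO arrays of A375 were the highest. The change was -1.40 ± 0.06 in A375 (2.63-fold lower, adjusted p = 5.62e-10, and -1.38 without A375 vemurafenib replicate 1) and -0.67 ± 0.06 in A2058 (1.59-fold lower, adjusted p = 1.3e-06). The responses differed by -0.73 (95% interval -0.90 to -0.55, adjusted p = 1.48e-05).

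ROR1, a receptor tyrosine kinase that binds WNT5A, was spread widely over the treated A375 arrays (SD 0.41, n = 3). It read 7.03, 6.20 and 6.61 in A375 with vemurafenib, against 6.83, 6.90 and 6.95 with DMSO. In A2058 it read 8.50, 8.41 and 8.50 with vemurafenib, against 8.56, 8.58 and 8.57 with DMSO. The A375 groups overlapped because replicate 1 lay above all 3 DMSO arrays while the other treated arrays lay below them. The A2058 groups did not overlap but were close together. The log2 difference was -0.28 (95% interval -0.59 to 0.04, adjusted p = 0.174) in A375 and -0.10 (-0.42 to 0.21, adjusted p = 0.741) in A2058. Since the fit uses a common spread, the A2058 interval carries the wide spread of the treated A375 arrays. The A2058 SDs were 0.05 with vemurafenib and 0.01 with DMSO. In a limma fit of the A2058 arrays alone the adjusted p was 0.114, still not called. Without A375 vemurafenib replicate 1 the A375 difference was -0.48 and was called (adjusted p = 0.000533), while without replicate 2, the lowest treated array, it was -0.07 (adjusted p = 0.64). The difference between the responses was -0.17 (adjusted p = 0.64) with all arrays, -0.38 (adjusted p = 0.0218) without replicate 1 and 0.03 (adjusted p = 0.908) without replicate 2. The size and the call for ROR1 in A375 thus rest on single arrays.

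ROR2, the related receptor, read 5.39, 5.13 and 5.13 in A375 with vemurafenib and 5.34, 5.35 and 5.24 with DMSO. In A2058 it read 5.21, 5.22 and 5.27 with vemurafenib and 5.18, 5.28 and 5.11 with DMSO. The groups overlapped in each line, and all 12 values lay within 5.11 to 5.39, below the median of 6.02 over all genes. The difference was -0.10 (95% interval -0.25 to 0.06, adjusted p = 0.358) in A375 and 0.04 (-0.11 to 0.20, adjusted p = 0.78) in A2058. Here too the A375 difference was called without A375 vemurafenib replicate 1, at -0.18 (adjusted p = 0.0155), as was the difference between the responses (-0.22, adjusted p = 0.028, against -0.14, adjusted p = 0.377, with the array). Without replicate 2 the A375 difference was -0.05 (adjusted p = 0.665), and without replicate 3 it was -0.05 (adjusted p = 0.684).

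The secreted antagonists moved in 3 different ways. SFRP1 fell by about the same amount in both lines, DKK3 rose in both and more in A375, and DKK1 rose in A375 and fell in A2058. DKK1 read 8.16, 8.44 and 8.55 in A375 with vemurafenib, against 6.52, 6.27 and 6.33 with DMSO. In A2058 it read 6.82, 6.77 and 6.83 with vemurafenib, against 9.22, 9.11 and 9.17 with DMSO. The order of the lines was thus turned by the drug: DKK1 was higher in A2058 under DMSO and higher in A375 under vemurafenib, with no overlap in any of these comparisons. Its change was 2.01 ± 0.09 in A375 (4.03-fold higher, adjusted p = 1.41e-09, and 2.12 without A375 vemurafenib replicate 1) and -2.36 ± 0.09 in A2058 (5.15-fold lower, adjusted p = 8.76e-10). The difference between the responses, 4.38 (95% interval 4.10 to 4.65, adjusted p = 8.03e-11), ranked 10 from the top among all 18404 genes. Over those genes, 4.41% were called in both lines with opposite directions. The DKK1 promoter window, printed above, holds a pair of TCF/LEF letter matches, where 11.96% of windows held that motif. Any link between these letters and the changes was not tested.

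DKK3 read 7.94, 7.92 and 8.07 in A375 with vemurafenib, against 6.49, 6.51 and 6.60 with DMSO. In A2058 it read 6.65, 6.56 and 6.63 with vemurafenib, against 6.33, 6.26 and 6.16 with DMSO. Treated arrays lay above DMSO arrays in each line, and those of A375 stood apart from all other arrays. The change was 1.45 ± 0.06 in A375 (2.73-fold higher, adjusted p = 4.74e-10, and 1.47 without A375 vemurafenib replicate 1) and 0.37 ± 0.06 in A2058 (1.29-fold higher, adjusted p = 0.000298). The responses differed by 1.08 (95% interval 0.91 to 1.26, adjusted p = 4.66e-07). The array holds 2 DKK3 probe sets, and the dimmer one averaged 4.34 over the 12 arrays. On the dimmer one the treatments overlapped in each line. It read 4.33, 4.30 and 4.34 with vemurafenib and 4.25, 4.35 and 4.25 with DMSO in A375. In A2058 it read 4.42, 4.45 and 4.38 with vemurafenib and 4.36, 4.41 and 4.25 with DMSO. With both averaged, the changes were 0.74 in A375 and 0.22 in A2058, and both were called. That average carries the change of the brighter probe set, on which the DKK3 result rests.

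SFRP1 read 8.10, 7.99 and 8.01 in A375 with vemurafenib, against 10.18, 10.19 and 10.23 with DMSO. In A2058 it read 7.41, 7.41 and 7.56 with vemurafenib, against 9.58, 9.68 and 9.69 with DMSO. The treated arrays lay well below the DMSO arrays in each line, and A375 lay above A2058 under both treatments. The change was -2.17 ± 0.05 in A375 (4.5-fold lower, adjusted p = 3.77e-12, and -2.20 without A375 vemurafenib replicate 1) and -2.19 ± 0.05 in A2058 (4.56-fold lower, adjusted p = 1.31e-11). No difference between the responses was called (0.02, adjusted p = 0.918), and its 95% interval of -0.14 to 0.18 bounds how far they could differ under this model.

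LEF1, the DNA-binding partner of beta-catenin, fell in both lines, by far more in A375. It read 6.81, 6.98 and 6.92 in A375 with vemurafenib, against 9.62, 9.65 and 9.63 with DMSO. In A2058 it read 9.65, 9.72 and 9.68 with vemurafenib, against 10.42, 10.43 and 10.51 with DMSO. Treated A2058 cells thus had about the level of A375 cells in DMSO, and treated A375 cells lay far below every other group. The change was -2.73 ± 0.05 in A375 (6.63-fold lower, adjusted p = 2.87e-13, rank 36 from the lowest of all genes, and -2.68 without A375 vemurafenib replicate 1). In A2058 it was -0.77 ± 0.05 (1.7-fold lower, adjusted p = 8.32e-08). The responses differed by -1.96 (95% interval -2.11 to -1.81, adjusted p = 3.82e-10).

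AXIN2, the beta-catenin feedback gene, was not called in either line. It read 5.48, 5.38 and 5.32 in A375 with vemurafenib, against 5.37, 5.48 and 5.50 with DMSO, and 5.44, 5.57 and 5.56 in A2058 with vemurafenib, against 5.53, 5.63 and 5.57 with DMSO. The groups overlapped in each line, and like ROR2 the gene lay in the lower part of the scale. The difference was -0.06 in each line, with a 95% interval of -0.18 to 0.07 in each (adjusted p = 0.548 in A375 and 0.607 in A2058). Without A375 vemurafenib replicate 1 the A375 difference was -0.10 (adjusted p = 0.187).

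**Figure D2:**
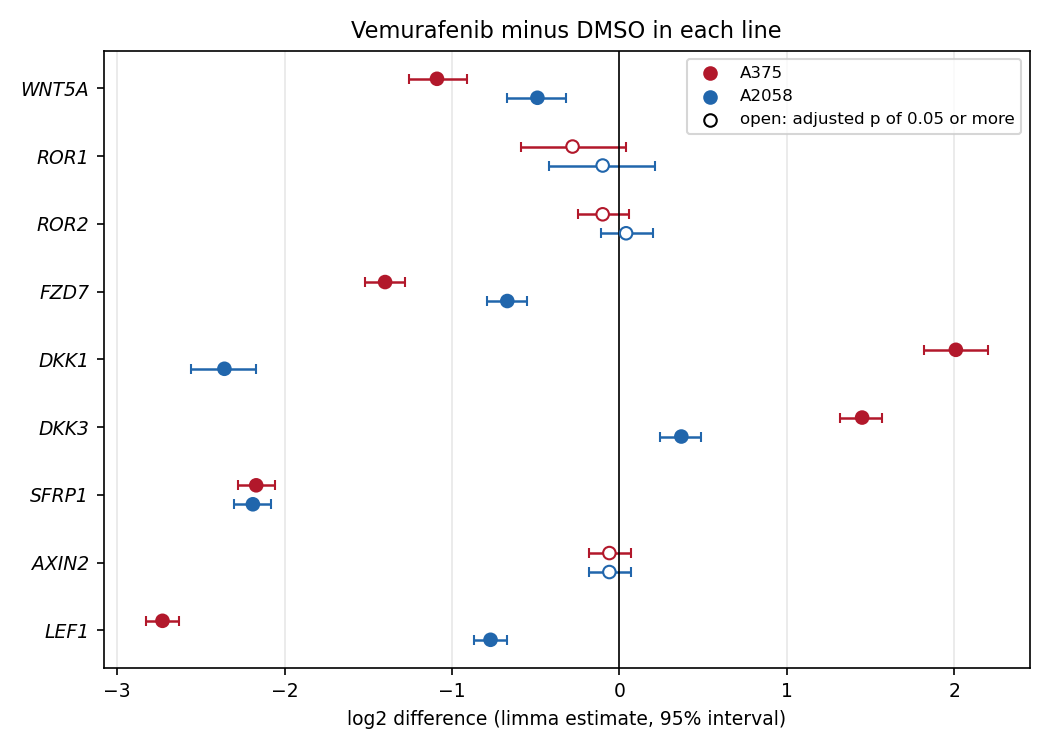
Log2 difference of vemurafenib minus DMSO for the 9 genes in A375 (upper point) and A2058 (lower point), with 95% intervals from the limma fit. Filled points passed an adjusted p of 0.05. The SFRP1 points nearly coincide (-2.17 and -2.19), LEF1 differs in size (-2.73 and -0.77), and DKK1 lies on opposite sides of 0 (2.01 and -2.36).

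In A375, 4 of the 9 measured genes fell (WNT5A, FZD7, SFRP1 and LEF1) and 2 rose (DKK1 and DKK3), where 19.3% of all genes were called lower and 17.7% higher. In A2058, 5 fell (the same 4 and DKK1) and 1 rose (DKK3), where 12.5% of all genes were called lower and 14.6% higher. All 6 called genes in A375 changed at least 2-fold, and 2 of the 6 in A2058 did (DKK1 and SFRP1), against 4.20% and 1.98% of all genes. The arrays of the treatments did not overlap for 6 genes in A375 and 7 in A2058, where 43.6% and 40.6% of all genes did not. The 4 genes that fell in both lines stand beside a share of 6.85% of all genes that did so. For 5 genes (WNT5A, FZD7, DKK1, DKK3 and LEF1) the response differed between the lines, where 29.5% of all genes did, and for 3 of them (DKK1, DKK3 and LEF1) by at least 2-fold, where 4.19% did. DKK3 would leave these 2-fold counts with its probe sets averaged, at 0.74 in A375 and 0.52 for the difference of responses. WNT5A would leave the A375 count without A375 vemurafenib replicate 1, at -0.98. The median change of the 9 genes was -0.28 in A375 and -0.49 in A2058, against 0.004 and 0.006 over all genes. The genes were chosen as a WNT set with earlier results of these data known, so these shares describe the set and are not a test of it.

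The second comparison set A375 against A2058 under each treatment. These differences use the same arrays as the responses above and are a second reading of them. Under DMSO, 4 genes were higher in A375 (WNT5A, FZD7, DKK3 and SFRP1) and 3 lower (ROR1, DKK1 and LEF1), where 23.9% of all genes were called higher and 22.5% lower, 46.4% in all. The lines did not overlap for 8 genes (56.8% of all genes), and 3 genes (WNT5A, ROR1 and DKK1) differed at least 2-fold (6.37%). WNT5A was 4.36-fold higher in A375 than in A2058 (2.13 ± 0.08, adjusted p = 3.04e-10), and ROR1 was 3.2-fold lower (-1.68 ± 0.14, adjusted p = 6.12e-07). A375 thus had more RNA of the ligand and less RNA of this receptor, and no array of either line overlapped the other for either gene. Protein was not measured here. DKK1 was 6.96-fold lower in A375 (-2.80 ± 0.09, adjusted p = 5.85e-11) and LEF1 1.77-fold lower (-0.82 ± 0.05, adjusted p = 1.52e-08). Smaller differences were those of SFRP1 (0.56 ± 0.05, adjusted p = 1.18e-06), FZD7 (0.54 ± 0.06, adjusted p = 3.26e-06) and DKK3 (0.28 ± 0.06, adjusted p = 0.0011). The DKK3 call was lost when its probe sets were averaged (0.11, adjusted p = 0.072).

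Under vemurafenib, 4 genes were higher in A375 (WNT5A, DKK1, DKK3 and SFRP1) and 3 lower (ROR1, FZD7 and LEF1), where 22.7% of all genes were called higher and 24.2% lower, 46.9% in all. The lines did not overlap for 7 genes (51.2% of all genes), and 5 genes (WNT5A, ROR1, DKK1, DKK3 and LEF1) differed at least 2-fold (7.23%), of which DKK3 would not with its probe sets averaged (0.63). WNT5A remained higher in A375 (1.53 ± 0.08, 2.89-fold, adjusted p = 5.16e-09) and ROR1 lower (-1.85 ± 0.14, 3.62-fold, adjusted p = 2.24e-07). Without A375 vemurafenib replicate 1 these were 1.64 and -2.06. The LEF1 gap widened to -2.78 ± 0.05 (6.87-fold lower in A375, adjusted p = 1.22e-13). DKK1 was now 2.98-fold higher in A375 (1.58 ± 0.09, adjusted p = 9.69e-09), and DKK3 was 2.57-fold higher (1.36 ± 0.06, adjusted p = 5.89e-10). SFRP1 kept its gap (0.57 ± 0.05, adjusted p = 8.45e-07). FZD7 was slightly lower in A375 (-0.18 ± 0.06, adjusted p = 0.016), but did not pass when A375 vemurafenib replicate 2 was left out (-0.16, adjusted p = 0.0641). ROR2 was not called between the lines under either treatment (-0.02, adjusted p = 0.861 with vemurafenib, and 0.12, adjusted p = 0.207 with DMSO). AXIN2 was not called either, at -0.13 under each treatment (adjusted p = 0.0879 with vemurafenib and 0.0867 with DMSO), though it lay close to the threshold and passed without A375 vemurafenib replicate 1 (adjusted p = 0.0202 with vemurafenib and 0.0481 with DMSO) and, for the vemurafenib arrays, without A2058 vemurafenib replicate 1 (adjusted p = 0.0442).

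**Figure D3:**
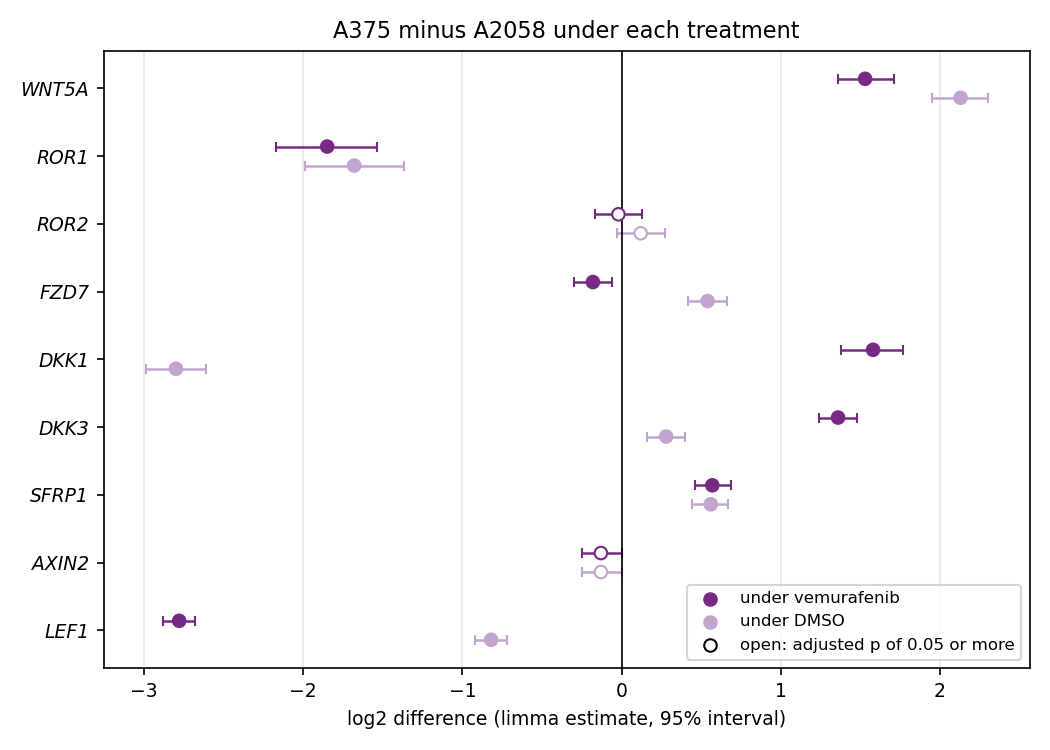
Log2 difference of A375 minus A2058 for the 9 genes under vemurafenib (upper point) and under DMSO (lower point), with 95% intervals from the limma fit. Filled points passed an adjusted p of 0.05. DKK1 (1.58 and -2.80) and FZD7 (-0.18 and 0.54) change side between the treatments, while WNT5A stays higher and ROR1 and LEF1 stay lower in A375.

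The wider pathway was read from 8 lists by role, which hold 92 further WNT genes, 91 of them measured. In A375, 11 of the 91 rose and 23 fell, together 37.4% against 37.0% of all genes. In A2058, 16 rose and 13 fell, 31.9% against 27.1% of all genes. The wider set was thus called about as often as genes at large. By direction, 17.7% of all genes were called higher and 19.3% lower in A375, and 14.6% and 12.5% in A2058.

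Of 18 other WNT ligands, 1 was called in A375, WNT3, which fell by little (-0.25 ± 0.07, adjusted p = 0.0115). WNT3 was dim, averaging 5.08 with vemurafenib and 5.33 with DMSO in A375. In A2058 limma called 0 of 18, with 2 at an unadjusted p under 0.05. Of all genes, 37.0% were called in A375 and 27.1% in A2058. WNT5B, the closest relative of WNT5A, differed by 0.02 in A375 (adjusted p = 0.843) and 0.05 in A2058 (adjusted p = 0.664). Its group means, 5.72 to 5.84, lay below the median of 6.02 over all genes, and their height above background was not tested. Among 5 measured secretion genes and R-spondins 1 was called in A375 and 0 in A2058 (0 also at an unadjusted p under 0.05). WLS, which carries WNT proteins to the cell surface, rose in A375 (0.60 ± 0.05, adjusted p = 5.74e-07), with -0.01 in A2058 (adjusted p = 0.945), and these responses differed by 0.61 (adjusted p = 2.08e-05).

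Of 16 other receptors and co-receptors, 2 rose and 7 fell in A375, and 2 rose and 5 fell in A2058. Together these were 56.2% in A375 and 43.8% in A2058, against 37.0% and 27.1% of all genes. The Frizzled receptors FZD8 (-0.86 ± 0.09 in A375 and -0.77 ± 0.09 in A2058, adjusted p = 4.2e-06 and 1.91e-05) and FZD6 (-0.83 and -0.94, adjusted p = 8.23e-06 and 5.14e-06) fell in both lines, as FZD7 did. LGR4, a receptor for R-spondins, rose most in A375. It averaged 8.78 with vemurafenib and 7.13 with DMSO in A375 (1.65 ± 0.07, adjusted p = 7.1e-10), and 7.57 and 7.18 in A2058 (0.39, adjusted p = 0.000659). PTK7, a co-receptor of the planar polarity branch, fell in A375 (-0.39, adjusted p = 0.000911) and rose in A2058 (0.32, adjusted p = 0.00531), with a difference between responses of -0.71 (adjusted p = 0.000183).

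Among 12 other secreted or surface antagonists, 1 rose and 1 fell in each line. That was 16.7% in each, below the 37.0% and 27.1% of all genes called in A375 and A2058. KREMEN1, a receptor through which DKK1 acts on LRP co-receptors, rose in A375 (0.75 ± 0.05, adjusted p = 1.07e-07) and in A2058 (0.28 ± 0.05, adjusted p = 0.00109). SOSTDC1, a secreted antagonist of the sclerostin family, fell in A2058 (-0.24 ± 0.04, adjusted p = 0.000885), with 0.01 in A375 (adjusted p = 0.876). It was dim, averaging 4.17 with vemurafenib and 4.42 with DMSO in A2058, where 25% of all gene values lay below 4.78. SFRP5, a relative of SFRP1, fell in A375 (-1.11 ± 0.08, adjusted p = 1.41e-07), with 0.07 in A2058 (adjusted p = 0.642). The SFRP5 responses differed by -1.18 (adjusted p = 3.83e-06).

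Of 13 genes of the cytoplasmic relay and destruction complex, 2 rose and 4 fell in A375, and 6 rose and none fell in A2058. The share called was 46.2% in each line, against 37.0% of all genes in A375 and 27.1% in A2058. Beta-catenin itself, CTNNB1, averaged 10.89 with vemurafenib and 11.25 with DMSO in A375, and 11.73 and 11.40 in A2058. It fell in A375 (-0.35 ± 0.05, adjusted p = 7.15e-05) and rose in A2058 (0.33 ± 0.05, adjusted p = 0.000218), and the responses differed by -0.69 (adjusted p = 7.88e-06). GSK3B, a kinase that marks beta-catenin for degradation, fell in A375 (-1.02 ± 0.06, adjusted p = 3.8e-08), with 0.09 in A2058 (adjusted p = 0.384) and a difference between responses of -1.11 (adjusted p = 8.92e-07). APC, a scaffold of the same complex (0.47 ± 0.06, adjusted p = 5.23e-05), and DVL2, which relays the signal from Frizzled (0.45 ± 0.05, adjusted p = 1.58e-05), rose in A2058. DVL1, a relative of DVL2, fell in A375 (-0.51 ± 0.07, adjusted p = 9.04e-05), with -0.10 in A2058 (adjusted p = 0.427).

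Of 11 nuclear partners, 3 rose and 6 fell in A375, and 3 rose and 4 fell in A2058. Called were 81.8% in A375 and 63.6% in A2058, against 37.0% and 27.1% of all genes. TCF7L2, a relative of LEF1, fell in both lines (-1.39 ± 0.07 in A375 and -0.85 ± 0.07 in A2058, adjusted p = 3.19e-09 and 7.24e-07), and the responses differed by -0.54 (adjusted p = 0.000734). TLE4, a co-repressor of these factors, also fell in both (-1.17 ± 0.05 and -1.76 ± 0.05, adjusted p = 1.57e-09 and 1.14e-10). Its relatives did not follow it. TLE1 rose in both lines (0.84 and 0.81, adjusted p = 1.52e-07 and 4.45e-07). TLE3 fell in A375 (-0.39, adjusted p = 0.000149) and rose in A2058 (0.25, adjusted p = 0.00712), and TLE2 was not called in either (adjusted p = 0.136 and 0.769). TCF7L1, of the same family as LEF1, fell in A375 (-0.42, adjusted p = 1.18e-05) and rose in A2058 (0.29, adjusted p = 0.000464), and its responses differed by -0.71 (adjusted p = 4.25e-06).

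Of 9 planar polarity genes, 2 rose and 3 fell in A375, and 4 rose and 1 fell in A2058. In each line 55.6% were called, against 37.0% of all genes in A375 and 27.1% in A2058. CELSR1, an adhesion receptor, fell in A375 (-0.76, adjusted p = 9.1e-07), and its relative CELSR2 rose in A2058 (0.69, adjusted p = 1.88e-06). VANGL1 of this list rose in A375 (0.54 ± 0.06, adjusted p = 8.46e-06), with -0.08 in A2058 (adjusted p = 0.446). DAAM2, a formin of this branch, fell in both lines (-0.40, adjusted p = 0.0014, in A375 and -0.87, adjusted p = 3.28e-06, in A2058). Of 7 other feedback targets of WNT signalling, 1 fell in A375 (ZNRF3, -0.17, adjusted p = 0.0242) and 2 fell in A2058. Those were the membrane receptor TNFRSF19 (-0.88, adjusted p = 1.23e-08) and RNF43, a ligase that removes Frizzled from the surface (-0.65, adjusted p = 1.15e-06), and none rose in either line. Of the 7, 14.3% were called in A375 and 28.6% in A2058, against 37.0% and 27.1% of all genes. TNFRSF19 and RNF43 differed by 0.08 and -0.01 in A375 (adjusted p = 0.202 and 0.894), and the responses of each differed between the lines (0.96 and 0.64, adjusted p = 1.4e-07 and 3.04e-05). RNF43 was dim, averaging 4.47 with vemurafenib and 4.48 with DMSO in A375, and 4.55 and 5.21 in A2058. Of all gene values, 25% lay below 4.78. What part this low level has in the RNF43 difference between responses was not tested.

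**Figure D4:**
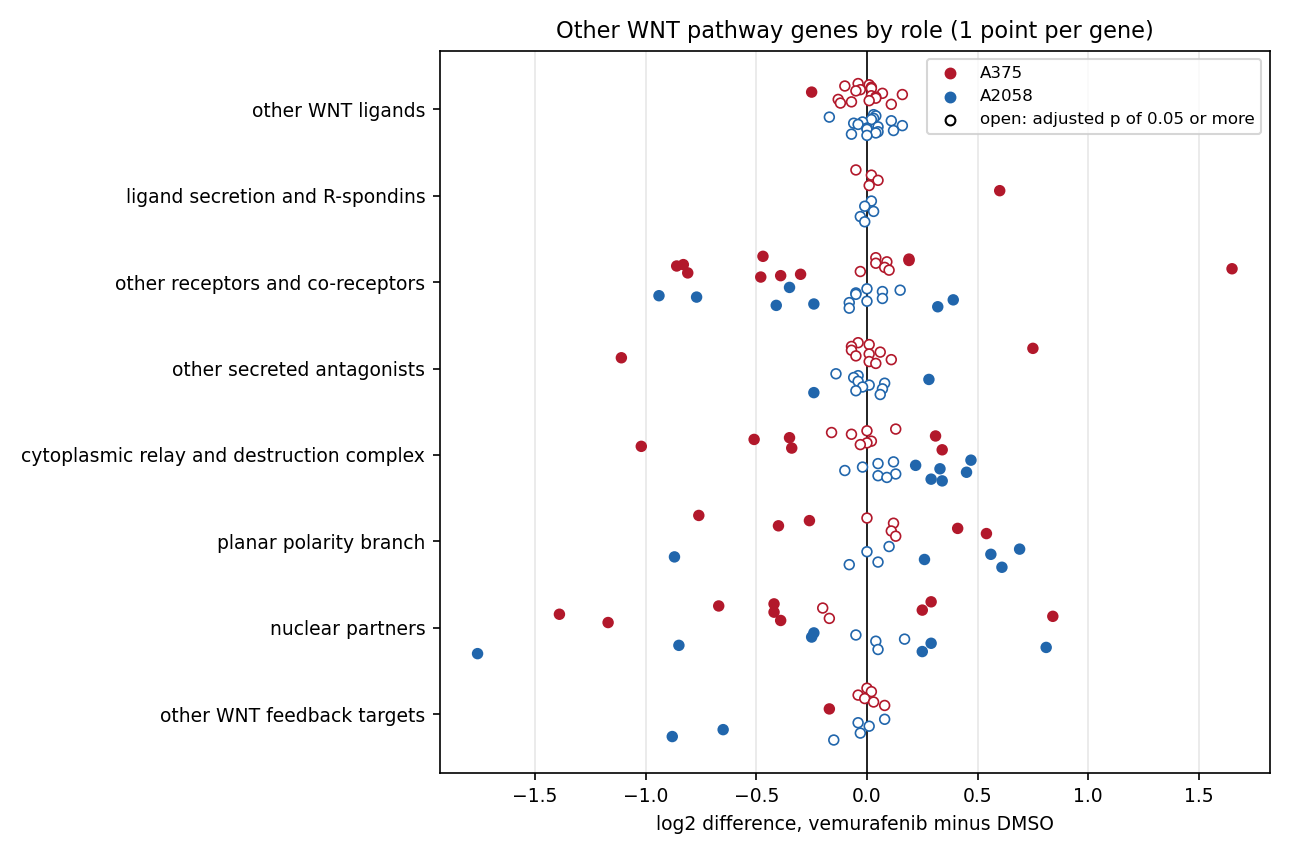
Log2 difference of vemurafenib minus DMSO for 91 other WNT pathway genes by role, 1 point per gene, with A375 above A2058 in each row and filled points for an adjusted p under 0.05. The ligands lie near 0 with 1 filled point, LGR4 (1.65 in A375) is the farthest to the right, and TLE4 (-1.76 in A2058) the farthest to the left.

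The genes whose profile over the 12 arrays was most like that of a member were found by Pearson correlation, among genes with at least 50% of its SD. For WNT5A they were SERPINB1, a protease inhibitor (r = 0.9967), the NF-kB subunit NFKB2 (r = 0.9927) and the integrin ITGA5 (r = 0.9918). For LEF1 they were the kinase CDK14 (r = 0.9985), the matrix protein HMCN1 (r = 0.9983) and FARP1 (r = 0.9912). CDK14 changed by -2.29 in A375 and -0.61 in A2058. For DKK1 they were VCAN, a matrix proteoglycan (r = 0.8809), the matrix protein EFEMP1 (r = 0.8728) and NTM, a cell adhesion protein (r = 0.8365). VCAN, like DKK1, rose in A375 (1.77, adjusted p = 1.35e-11) and fell in A2058 (-0.84, adjusted p = 4.29e-08). The 12 points of each correlation fall into 4 groups and share those arrays, and 150 of 1745 genes compared passed r = 0.95 with WNT5A, 25 of 1025 with LEF1 and 0 of 1391 with DKK1, so these values describe the profile only.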

How the data were processed

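Total RNA of 12 samples was amplified and labelled with the Ambion and Affymetrix whole-transcript kits, per the labels' protocols. The authors deposited a log2 expression value for each of 32321 probe sets on each array. The submitters' processing notes name R 3.0.1 and affy. How background was corrected and probes were summarised is not given in the sources used here. The log2 scale was read from the values (3.24 to 13.08), and array medians of 5.19 to 5.3 show that the arrays were already brought to a common scale, so none was rescaled. Such scaling removes any change shared by all genes. The number of arrays limits the precision.

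The platform annotation gave 19158 probe sets 1 symbol, 1388 several and 11775 none; symbols were updated through RefSeq (GRCh38.p14, 19128 matched), leaving 18404 genes. One limma fit (version 3.58.1, R 4.3.3) of the 4 group means took all arrays, with 8 residual and 3.98 prior degrees of freedom, two-sided, with Benjamini-Hochberg adjustment over all genes. The code was run on simulated data with a common spread over the groups and far fewer changed genes than here. That run checks the code and not how well the fit suits these data. The members, role lists and marker lists were chosen with earlier results of these data known. Named beside the members are up to 2 called genes of largest change per role list within each line. Of such picks for the difference of responses some are given, and differences between the lines are left out. Also named are WNT5B, TCF7L2, CTNNB1 and the 3 genes most like WNT5A, LEF1 and DKK1. Values of such a gene in the other line, TLE1, TLE2, TLE3 and the cell type markers named were added after they were seen. Alternatives changed the probe set rule, filter, normalization, arrays, weights, variance prior and threshold, added a replicate block or left out each array. No exact copy of an array was found. No gene positions are given beside the promoter windows, since no build is named for the values.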

Additional observations from a re-analysis of the deposited data

Results flagged for a closer look

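The response to vemurafenib differed between A375 and A2058 for 5 of the 9 genes, by the test of the difference itself in the limma fit, where 29.5% of all genes passed that test. The A375 response minus the A2058 response was 4.38 for DKK1, 1.08 for DKK3, -0.59 for WNT5A, -0.73 for FZD7 and -1.96 for LEF1. DKK1 moved in opposite directions, and the other 4 moved the same way in both lines and further in A375. The cause of these differences was not tested. Groups of 3 arrays are too small for a test of single outlying arrays.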

How the results depend on the processing

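No direction of a called difference turned under any alternative run. Counts of called genes stayed within 1.5 times, except where a change of at least 2-fold was also asked. Members called were then 2 in A2058, 3 for the difference of responses and 3 between the lines under DMSO, and other WNT genes were 5 in A375, 1 in A2058, 3 for the difference of responses and 6 between the lines under each treatment; fewer follow from the stricter rule itself. Of all genes, 773 passed that rule in A375 against 6816 without it, and 365 against 4991 in A2058. With a replicate block, 6 members were called in A375 and 6 in A2058, as without it, and no member call changed. Replicate numbers showed no pairing: deviations of arrays with the same number correlated at -0.39 to 0.35, and 2 of 12 arrays correlated best with their own number. Leaving out 1 array kept 532 member differences on their side of the threshold, moved 7 past it and lost 1. Other settings kept 376, moved 9 past it and lost 1. Calls gained concerned ROR1, ROR2 and AXIN2, and calls lost FZD7 and DKK3. With array weights ROR1 was called in A375 at -0.45 (adjusted p = 0.00145, against 0.000533 to 0.64 over all alternatives). The filter on dim genes left out ROR2 and AXIN2. The files give no background level, so how far dim signals such as ROR2, AXIN2 and WNT5A in A2058 lie above it was not tested.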
